A study of Mus musculus with 9 samples.

Results

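In blood monocytes, 4 of 6 genes of clotting and its cell surface control had lower expression when the chemokine receptor Ccr2 was deleted. By the same test 8.38% of all genes measured were lower. The 4 genes were F10 (coagulation factor X), F5 (coagulation factor V), Thbs1 (thrombospondin-1) and Plaur (the urokinase receptor). F3 (tissue factor) and F7 (coagulation factor VII) passed no test. The 6 genes are taken by name from the extrinsic clotting reaction and from thrombospondin and urokinase biology, a choice made with earlier results of these data known, and they are 6 of the 19938 genes measured. F5 and F10 also appear, as read by eye from a picture, among genes that the study drew from an enrichment analysis of these same samples, so their direction in Ccr2-/- monocytes is not independent evidence.

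Monocytes were purified from the blood of tumor-free Balb/c mice aged 14 to 18 weeks that were wild type, Ccl2-/- or Ccr2-/-. Ccl2 encodes the chemokine CCL2 and Ccr2 its receptor, and both deletions were present in every cell of the animal from conception. Each genotype had 3 Affymetrix Mouse Gene 1.0 ST arrays, 9 in all, and each array held the RNA of 5 pooled mice, so the spread between arrays is a spread between pools. Purification removed lymphocytes by CD4, CD8 and B220, neutrophils by Ly-6G, eosinophils by CCR3 and cells with MHC class II, and then kept those with CD11b. The study defines monocytes as also lacking NK1.1 and CD11c, while the antibodies listed for the purification include neither. Values are intensities, a linear measure of probe brightness in which genes cannot be ranked against each other, and tests were made on log2 intensity with limma, calling a difference at an adjusted p under 0.05.

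The extrinsic pathway begins when tissue factor on a cell surface binds factor VII. The complex cuts factor X, and factor Xa with its cofactor factor V then makes thrombin from prothrombin. Hepatocytes supply most of the circulating factors, while activated monocytes and macrophages are known for displaying tissue factor. Thrombospondin-1 is an adhesive glycoprotein that platelets store in large amounts and that monocytes also make, and it binds CD36 and CD47. The urokinase receptor holds urokinase on the cell surface, where it turns plasminogen into the clot-dissolving enzyme plasmin.

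The label of the samples was checked first. In the Ccr2-/- arrays Ccr2 read at 0.0797-fold of the wild type level (adjusted p = 4.33e-06 by limma), while the probes for Ccl2 read 1.39-fold of wild type in Ccl2-/- monocytes (adjusted p = 0.326) and do not check that deletion. Of 9 genes used by most monocytes and macrophages, Csf1r, Itgam and Lyz2 had mean log2 intensities of 12.79, 12.88 and 13.88 in Ccr2-/- arrays, but 7 of the 9 were lower there than in wild type, Csf1r among them (0.776-fold, adjusted p = 0.00964), and Cd14 was at 8.29. NK cell genes read high in the same arrays, with Gzma at 13.57 and Gzmb at 13.45, and in wild type at 13.22 and 12.67. Median intensity was 324.1 to 355.1 in all arrays but Ccl2-/- replicate 1, at 430.8. Over all genes, limma called 32 between Ccl2-/- and wild type, 2648 between Ccr2-/- and wild type and 718 between Ccr2-/- and Ccl2-/-. These totals depended on single arrays. The first was 476 without Ccl2-/- replicate 3, 36 without Ccl2-/- replicate 1 and 6 to 18 without any one of the others. The second was 1714 without wild type replicate 1, 1663 without Ccr2-/- replicate 1 and 1703 without Ccr2-/- replicate 2. The third was 1189 without Ccl2-/- replicate 1 and 22 to 351 without any one of the others.

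The sequences just before the transcription start are shown for the 3 genes that fell and have an entry, and for F7, the gene next to F10, so that the neighbours can be compared. They are RefSeq sequences of build GRCm38.p6, all on the plus strand, 250 bases each and ending at the base before the start. Capitals mark matches on either strand to any of 5 motifs. The letters searched were TGACTCA for AP-1, GAGGAA for the core of ETS sites, GGGCGG for the GC box, CCAAT for the box of that name and TATAAA for the TATA box. F3 had an entry too (chr3:121723287-121723536) and is described without its letters. Thbs1 had none.
F10, chr8:13037058-13037307: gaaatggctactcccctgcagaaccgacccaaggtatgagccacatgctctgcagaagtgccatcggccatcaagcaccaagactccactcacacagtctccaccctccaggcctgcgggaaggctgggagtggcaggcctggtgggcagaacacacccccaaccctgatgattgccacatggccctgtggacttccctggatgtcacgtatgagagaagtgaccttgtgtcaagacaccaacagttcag
F7, chr8:13025784-13026033: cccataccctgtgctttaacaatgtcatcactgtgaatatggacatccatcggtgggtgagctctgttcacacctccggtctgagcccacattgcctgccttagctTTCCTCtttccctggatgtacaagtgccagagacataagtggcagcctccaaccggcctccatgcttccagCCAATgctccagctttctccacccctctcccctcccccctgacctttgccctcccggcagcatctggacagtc
F5, chr1:164151585-164151834: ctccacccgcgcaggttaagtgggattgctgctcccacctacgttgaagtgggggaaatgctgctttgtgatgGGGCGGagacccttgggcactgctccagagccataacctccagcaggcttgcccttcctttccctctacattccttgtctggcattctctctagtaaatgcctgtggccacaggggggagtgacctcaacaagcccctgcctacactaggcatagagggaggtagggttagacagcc
Plaur, chr7:24462233-24462482: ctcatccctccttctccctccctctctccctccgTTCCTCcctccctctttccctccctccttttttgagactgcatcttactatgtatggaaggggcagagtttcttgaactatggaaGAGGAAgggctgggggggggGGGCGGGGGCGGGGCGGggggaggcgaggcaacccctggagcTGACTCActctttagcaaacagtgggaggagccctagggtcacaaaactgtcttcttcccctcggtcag

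The windows of the genes that fell had little in common in these letters. F10 held none of the 5 motifs, and F5 held 1 GC box on the plus strand. Plaur held 1 AP-1 site, 2 ETS cores and 3 GC boxes, with the GC boxes standing so close that they form a single run of capitals and neighbouring matches share or touch bases. F7 held 1 ETS core and 1 CCAAT box, and F3 held 1 AP-1 site and 3 GC boxes. None of the 5 windows held the TATA letters. Of 32851 RefSeq promoter windows of the same length, 4.46% held the AP-1 letters, 23.3% the ETS core, 32.7% the GC box, 33.8% the CCAAT box and 12.4% the TATA box. A match is only a match of letters and was not tested as a binding site.

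F3 and F7, which start the reaction, read low in every genotype. F3 had intensities of 188, 187 and 202 in the wild type arrays, 230.1, 191 and 218 in Ccl2-/- and 204, 215 and 206 in Ccr2-/-. The Ccr2-/- arrays were all above the wild type arrays by a small margin, a separation that 15.7% of all genes also showed, and the Ccl2-/- arrays overlapped both. F7 had intensities of 216, 261 and 218 in wild type, 312, 244 and 218 in Ccl2-/- and 223, 233 and 214 in Ccr2-/-, and the 3 groups overlapped. For scale, the probes of 1027 olfactory receptor genes, which blood monocytes are not known to use, had mean intensities with a median of 178 and a 5th to 95th percentile range of 60.6 to 440. Every F3 and F7 value lay inside that range, and the files carry no detection call. Against wild type, F3 was 1.08-fold in Ccr2-/- monocytes (95% confidence interval 0.951 to 1.24, adjusted p = 0.531) and 1.10-fold in Ccl2-/- (0.968 to 1.26, adjusted p = 0.474). F7 was 0.967-fold (0.781 to 1.2, adjusted p = 0.932) and 1.10-fold (0.892 to 1.37, adjusted p = 0.599). Between the knockouts, F3 in Ccr2-/- was 0.982-fold of Ccl2-/- (0.861 to 1.12, adjusted p = 0.884) and F7 was 0.875-fold (0.707 to 1.08, adjusted p = 0.484). At such intensities an array can understate a change in RNA.

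F10, the zymogen that the tissue factor complex activates, was expressed in wild type monocytes and fell in Ccr2-/- monocytes. Its intensities were 2896, 1958 and 1986 in wild type, 1809, 1594 and 1815 in Ccl2-/- and 837, 894 and 1034 in Ccr2-/-. The 3 genotypes did not overlap, and wild type replicate 1 stood well above the other wild type arrays. On the log2 scale the means were 11.13 ± 0.32 for wild type, 10.76 ± 0.11 for Ccl2-/- and 9.84 ± 0.16 for Ccr2-/- (SD, n = 3 arrays each). Expression in Ccr2-/- was 0.409-fold of wild type (0.319 to 0.526, limma adjusted p = 0.00125). These arrays of pooled blood cells cannot tell fewer cells of a type from less RNA per cell, here or for any gene below. Ccl2-/- monocytes had 0.774-fold of the wild type level (0.603 to 0.994, unadjusted p = 0.0458, adjusted p = 0.370), a difference that did not pass after adjustment. Without wild type replicate 1 it was -0.18 on the log2 scale in place of -0.37. The difference between the knockouts passed, with F10 in Ccr2-/- at 0.529-fold of Ccl2-/- (0.412 to 0.679, adjusted p = 0.0234), but not without Ccl2-/- replicate 3 (adjusted p = 0.0689), Ccr2-/- replicate 1 (0.114) or Ccr2-/- replicate 2 (0.0990).

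F5, the cofactor of factor Xa, showed the largest fold difference of the 6 genes between Ccr2-/- and wild type. It had intensities of 1596, 1198 and 1323 in wild type, 713, 767 and 938 in Ccl2-/- and 576, 460.3 and 499 in Ccr2-/-. All 3 genotypes were separate again, in the order wild type, Ccl2-/-, Ccr2-/-, and wild type replicate 1 was again the highest array. Mean log2 intensity was 10.41 ± 0.21 (SD, n = 3 arrays), 9.64 ± 0.20 and 8.99 ± 0.16 in that order. In Ccr2-/- monocytes F5 fell to 0.374-fold of wild type (0.297 to 0.470, adjusted p = 0.000765). In Ccl2-/- monocytes it was at 0.587-fold (0.467 to 0.738, unadjusted p = 0.000603), which missed the threshold after adjustment (adjusted p = 0.0807) and passed it when Ccl2-/- replicate 3 was left out (adjusted p = 0.0292). Between the knockouts F5 in Ccr2-/- was 0.636-fold of Ccl2-/- (0.506 to 0.800, adjusted p = 0.0485). That call rested on having every array but Ccl2-/- replicate 1, since leaving out any one of the other 8 gave an adjusted p of 0.0574 to 0.173.

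Thbs1 behaved differently in Ccl2-/- monocytes. Its intensities were 2755, 2941 and 2839 in wild type, 2916, 2494 and 3143 in Ccl2-/- and 1203, 1186 and 1340.5 in Ccr2-/-. The wild type arrays lay inside the Ccl2-/- range, and every Ccr2-/- array was below every other array. On the log2 scale the means were 11.47 ± 0.05 for wild type, 11.47 ± 0.17 for Ccl2-/- and 10.28 ± 0.10 for Ccr2-/- (SD, n = 3 arrays each). Expression in Ccr2-/- was 0.436-fold of wild type (0.375 to 0.508, limma adjusted p = 0.000517) and 0.437-fold of Ccl2-/- (0.375 to 0.510, adjusted p = 0.00443). The second call held with any single array left out. Ccl2-/- monocytes had 0.998-fold of the wild type level, with an interval of 0.856 to 1.16 (adjusted p = 0.990).

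Plaur followed Thbs1 in which groups separated, with a smaller fall. It had intensities of 3286, 2864 and 3152 in wild type, 3107, 2694 and 3278 in Ccl2-/- and 1693, 1933 and 2006 in Ccr2-/-. Wild type and Ccl2-/- arrays were interleaved and all Ccr2-/- arrays were below them. Mean log2 intensity was 11.60 ± 0.10 (SD, n = 3 arrays), 11.56 ± 0.15 and 10.87 ± 0.13. In Ccr2-/- monocytes Plaur fell to 0.605-fold of wild type (0.514 to 0.712, adjusted p = 0.00227), and it was 0.974-fold in Ccl2-/- (0.828 to 1.15, adjusted p = 0.861). Against Ccl2-/- it was 0.621-fold in Ccr2-/- (0.528 to 0.730, adjusted p = 0.0168), which was lost without Ccl2-/- replicate 3 (adjusted p = 0.0558), Ccr2-/- replicate 1 (0.0801) or Ccr2-/- replicate 2 (0.0771).

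**Figure D1:**
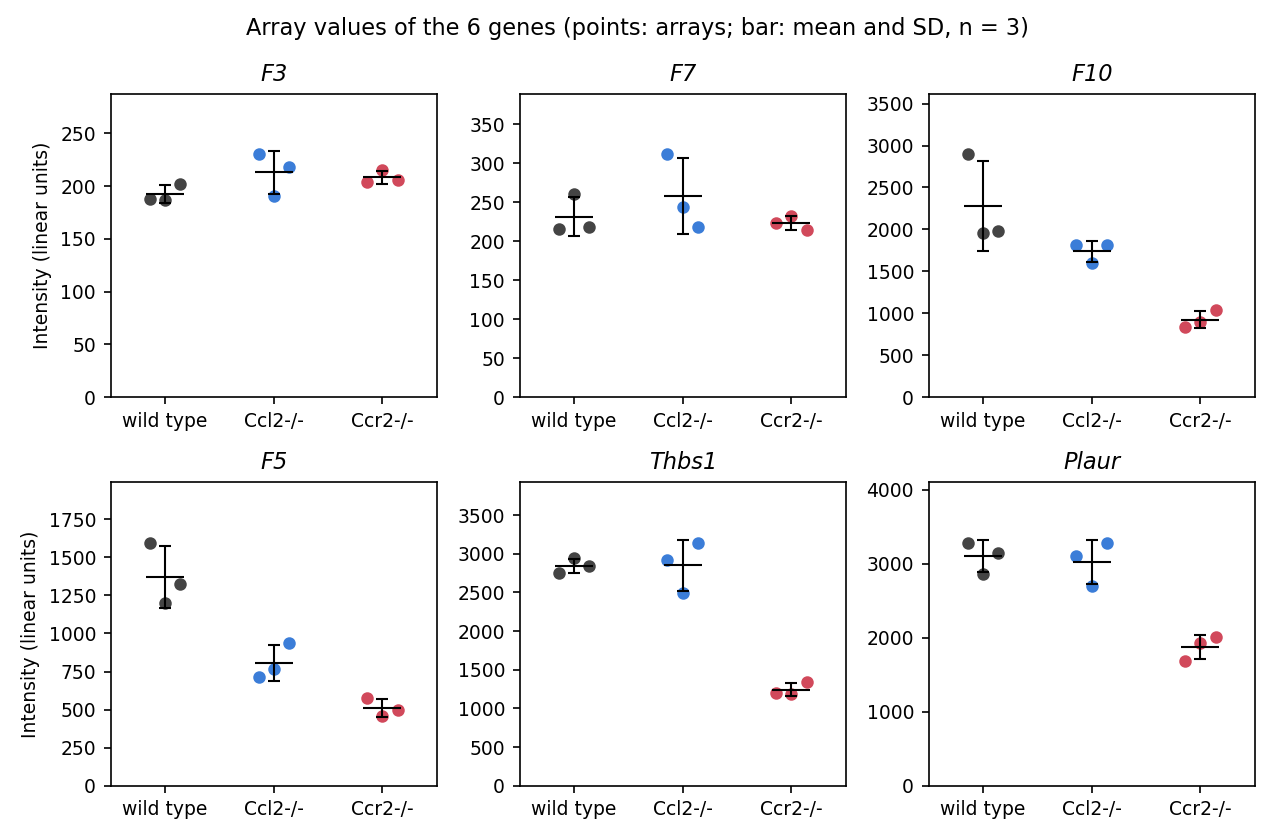
Linear intensity (vertical axis, arbitrary brightness units, from 0) of the 6 genes in each array, by genotype, with the mean and SD of 3 arrays. F10 and F5 are ordered wild type, Ccl2-/-, Ccr2-/- without overlap, Thbs1 and Plaur are low in Ccr2-/- alone, and F3 and F7 stay between 187 and 312.

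Counted together, 4 of the 6 genes were called lower in Ccr2-/- than in wild type, where limma called 8.38% of all genes lower. Between Ccr2-/- and Ccl2-/-, 4 of 6 were called lower against 2.87% of all genes, and only Thbs1 was left when Ccl2-/- replicate 3, Ccr2-/- replicate 1 or Ccr2-/- replicate 2 was omitted. Between Ccl2-/- and wild type none of the 6 was called in either direction, against 0.16% of all genes. At an unadjusted p under 0.05, F5 and F10 were past the threshold there, as were 2613 of all genes. Arrays that did not overlap, with the first group lower, were seen for 4 of 6 genes in Ccr2-/- against wild type (18.1% of all genes), for 4 of 6 in Ccr2-/- against Ccl2-/- (16% of all genes) and for 2 of 6 in Ccl2-/- against wild type (9.31% of all genes). The size limits of the study's methods, a ratio over 1.2 with a difference over 100 between group means, were passed downward by 4, 4 and 2 genes in these comparisons, against 9.21%, 9.16% and 3.76% of all genes. The 2 genes in Ccl2-/- were F10 (mean intensity lower by a ratio of 0.763) and F5 (0.587), and without wild type replicate 1 only 1 gene passed. With 6 genes chosen when earlier results were known, these counts describe the genes and test nothing about them as a group.

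**Figure D2:**
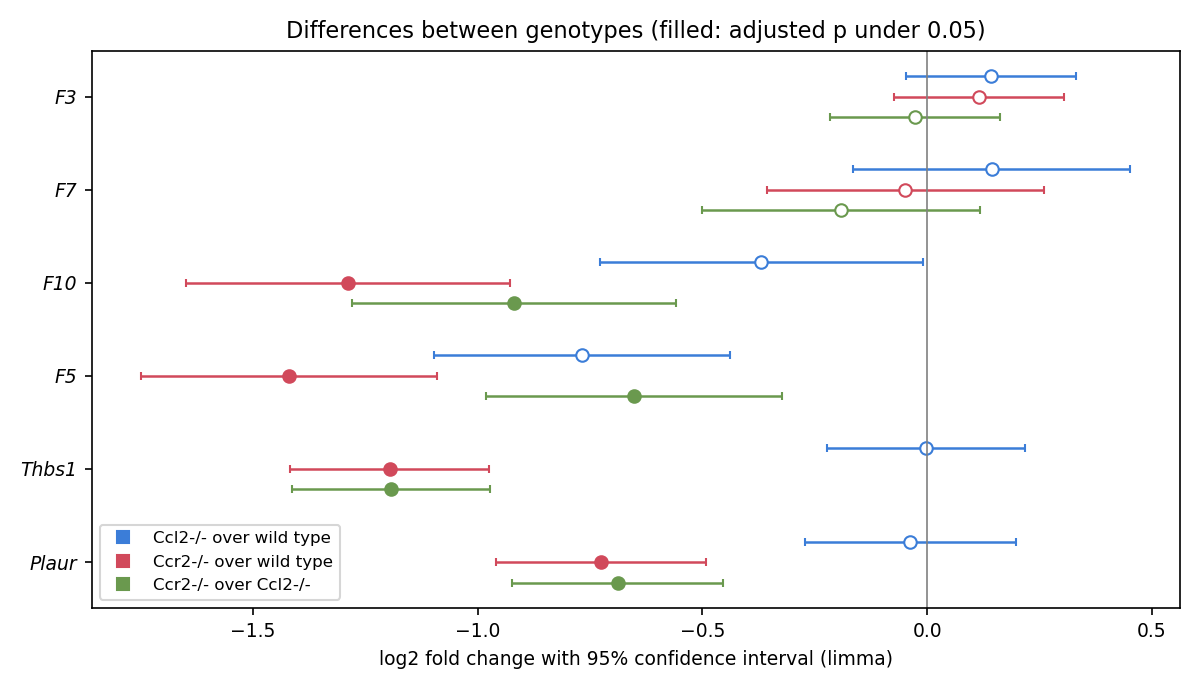
Log2 fold change (horizontal axis) with 95% confidence interval from the limma fit for each gene in the 3 comparisons. Filled points passed an adjusted p under 0.05: F10, F5, Thbs1 and Plaur in both comparisons of Ccr2-/-, with no gene filled in Ccl2-/- over wild type.

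F7 and F10 lie next to each other on mouse chromosome 8, with no measured gene between them in RefSeq order. F7 and Proz (mean log2 intensity 7.98 in Ccr2-/-) lie inside the range of the olfactory receptor probes and Mcf2l (8.77) at its upper edge, where folds near 1 carry little information about RNA. Where F10 was at 0.409-fold of wild type in Ccr2-/- monocytes, of the measured genes beyond it Proz (protein Z, a cofactor in inhibiting factor Xa) was at 0.940-fold (limma adjusted p = 0.870) and Pcid2 at 1.00-fold (adjusted p = 0.996). Before F7, Mcf2l was at 0.982-fold (adjusted p = 0.953) and Atp11a, a lipid flippase, at 0.648-fold (adjusted p = 0.0395). Atp11a lost its call in a fit of the 6 arrays compared and with the replicate number as a block. It also lost it without Ccl2-/- replicate 2 or 3 or any Ccr2-/- array. Adjusted p was 0.0518 to 0.134 over these settings.

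The genes whose profile over the 9 arrays lay closest to each member were found by the root mean square difference of log2 values, each gene centred on its own mean. For F10, whose own values spanned 1.79 on the log2 scale, they were Hp (0.068), Cfb (0.089) and Mefv (0.095), and these 3 genes were the only ones within 0.1. For F5, with a span of 1.79, they were Met (0.111), Slpi (0.113) and Mgst1 (0.116), with none within 0.1. Thbs1, with a span of 1.41, was closest to Ifi27l2a (0.084), Oas2 (0.092) and Ifi205 (0.116). Plaur spanned 0.96 and was closest to Cln6 (0.072), Ms4a4a (0.073) and Kcnk6 (0.076), with 18 genes within 0.1. The 4 genes thus shared none of their 3 nearest genes. Hp and Mgst1 also stand in the Ly-6Chi list used below. F3 and F7 spanned 0.30 and 0.54 and had 1208 and 2117 genes within 0.1, which is what flat profiles give, and their nearest genes (2310079G19Rik, Zcrb1 and Jade3 for F3, and Cdsn, Fam83e and C1qtnf2 for F7) carry little information.

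The wider pathway was read from 63 further genes listed by role, of which 58 were measured. In Ccr2-/- against wild type 11 were called lower and 3 higher, or 14 of 58 against 13.3% of all genes in either direction, and the median log2 change of the 58 was -0.02 against 0.01 over all genes. The other 44 were not called. The count of 14 became 9 without Ccr2-/- replicate 1 and 8 when each array was centred on its median.

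Among 20 clotting factors and the proteins that make them, 4 were lower in Ccr2-/- monocytes, against 8.38% of all genes. F13a1, the factor XIII subunit that crosslinks fibrin, had intensities of 8859, 8147 and 7664 in wild type, 5725, 5199 and 6034 in Ccl2-/- and 2962, 3229.9 and 3484 in Ccr2-/-. Its genotypes did not overlap and had the order of F10 and F5, with Ccr2-/- at 0.392-fold of wild type (limma adjusted p = 0.000322). F13a1 is also one of the Ly-6Chi markers below and is in the study's picture of enriched genes too. Vkorc1, which recycles the vitamin K that factors VII and X need, was at 0.657-fold (adjusted p = 0.00265). Lman1 and P4hb act in the secretory pathway, Lman1 as the cargo receptor for factors V and VIII, and were at 0.781-fold (adjusted p = 0.0202) and 0.776-fold (adjusted p = 0.0266). Both were lost without wild type replicate 1, Ccr2-/- replicate 1 or Ccr2-/- replicate 2 and after centring each array on its median. Lman1 was also lost without wild type replicate 3 and after quantile normalization (adjusted p of 0.0583 to 0.118 over these settings), and P4hb without wild type replicate 2 and with the replicate number as a block (0.0736 to 0.110). Mcfd2, the partner of Lman1, was at 0.750-fold (adjusted p = 0.0539).

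Of 13 anticoagulant genes, 3 were lower and 1 higher, against 13.3% of all genes called in either direction. Pros1 (protein S, the cofactor of activated protein C) was at 0.514-fold in the same comparison (limma adjusted p = 0.00661) and Anxa5, which shields phosphatidylserine surfaces from the clotting factors, at 0.666-fold (adjusted p = 0.00546). Thbd (thrombomodulin) was at 0.691-fold (adjusted p = 0.0191) and Entpd1, which degrades ADP and ATP, rose to 1.28-fold (adjusted p = 0.0210). Thbd lost its call after centring and without wild type replicate 2 or 3 or Ccr2-/- replicate 1 or 2 (adjusted p up to 0.0839). Entpd1 lost it after centring, with the block and without wild type replicate 1 or 3 or any Ccr2-/- array (up to 0.0833). Genes that promote and genes that restrain clotting were thus both among those called lower.

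Fibrinolysis had 2 of 11 genes called lower, against 8.38% of all genes, a count too small to be read further. Plau, the urokinase that Plaur binds, was at 0.639-fold of wild type (limma adjusted p = 0.00769), but all its intensities, 107 to 219, lay inside the range of the olfactory receptor probes. Lrp1, the scavenger receptor that clears urokinase complexes, was at 0.743-fold (adjusted p = 0.0219), and its call was lost after quantile normalization, after centring and without wild type replicate 1 or 3 or Ccr2-/- replicate 1 or 3 (adjusted p up to 0.117). Of 11 genes listed as thrombospondins, their receptors and proteins linked to them, 2 were lower, against 8.38% of all genes and again a small count. They were Tgfb1 at 0.767-fold (adjusted p = 0.00706), the cytokine that thrombospondin-1 can activate, and Sirpa at 0.753-fold (adjusted p = 0.00339), the partner of CD47. No thrombospondin on the list was called. Tgfb1 was not called when each array was centred on its median (adjusted p = 0.0797). The thrombospondin-1 receptors themselves were not called, with Cd36 at 1.22-fold (adjusted p = 0.353) and Cd47 at 0.963-fold (adjusted p = 0.722).

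Of the 3 protease-activated receptors measured, 2 rose in Ccr2-/- monocytes, where limma called 978 of all 19938 genes higher. F2r (PAR1, the main thrombin receptor of many cells) had intensities of 1504, 1567 and 1519 in wild type, 2355, 2486 and 1924 in Ccl2-/- and 3344, 3279.9 and 3182 in Ccr2-/-. Every Ccr2-/- array was above every Ccl2-/- array, and these above every wild type array. In Ccr2-/- monocytes F2r rose to 2.14-fold of wild type (adjusted p = 0.000579) and was at 1.47-fold in Ccl2-/- (adjusted p = 0.0717). F2rl2 (PAR3) had the same order and rose to 2.55-fold in Ccr2-/- (adjusted p = 0.000830), with 1.82-fold in Ccl2-/- (adjusted p = 0.0666). F2rl3 (PAR4) was at 0.947-fold of wild type in Ccr2-/- (adjusted p = 0.714). Marker genes of NK cells rose in the same arrays, as given below, and their part in the rise of F2r and F2rl2 was not tested.

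In Ccl2-/- against wild type, 1 of the 58 pathway genes was called, against 0.16% of all genes. It was Itgb3 (integrin β3, part of the fibrinogen receptor of platelets and of the vitronectin receptor). It had intensities of 823, 893 and 1005 in wild type, 1702, 1859 and 1814 in Ccl2-/- and 838, 861 and 699 in Ccr2-/-, so that Ccl2-/- stood alone. It rose to 1.98-fold of wild type in Ccl2-/- (limma adjusted p = 0.0141), a call lost after centring, in a fit of the 6 arrays compared, with the block and without wild type replicate 1 or 2 or Ccl2-/- replicate 2 (adjusted p up to 0.125). After centring, the 1 gene called was F2rl2 (log2 change 0.75, adjusted p = 0.0480). Itgb3 was 0.444-fold in Ccr2-/- against Ccl2-/- (adjusted p = 0.00482). Without Ccl2-/- replicate 3, 4 pathway genes were called in Ccl2-/- against wild type. Between Ccr2-/- and Ccl2-/-, 6 of 58 were called, against 3.6% of all genes in either direction. Besides Itgb3 they were F13a1 (0.570-fold, adjusted p = 0.0102), Thbd (0.670-fold, 0.0393), F2rl3 (0.765-fold, 0.0398), Tgfb1 (0.795-fold, 0.0405) and, upward, F2r (1.46-fold, 0.0251). Only Itgb3 kept its call in this comparison with any single array left out. The count was 9 without Ccl2-/- replicate 1, 3 without Ccl2-/- replicate 2 or 3, and 1 or 2 without any one of the other 6 arrays, with 1 left without Ccr2-/- replicate 1 or 2.

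**Figure D3:**
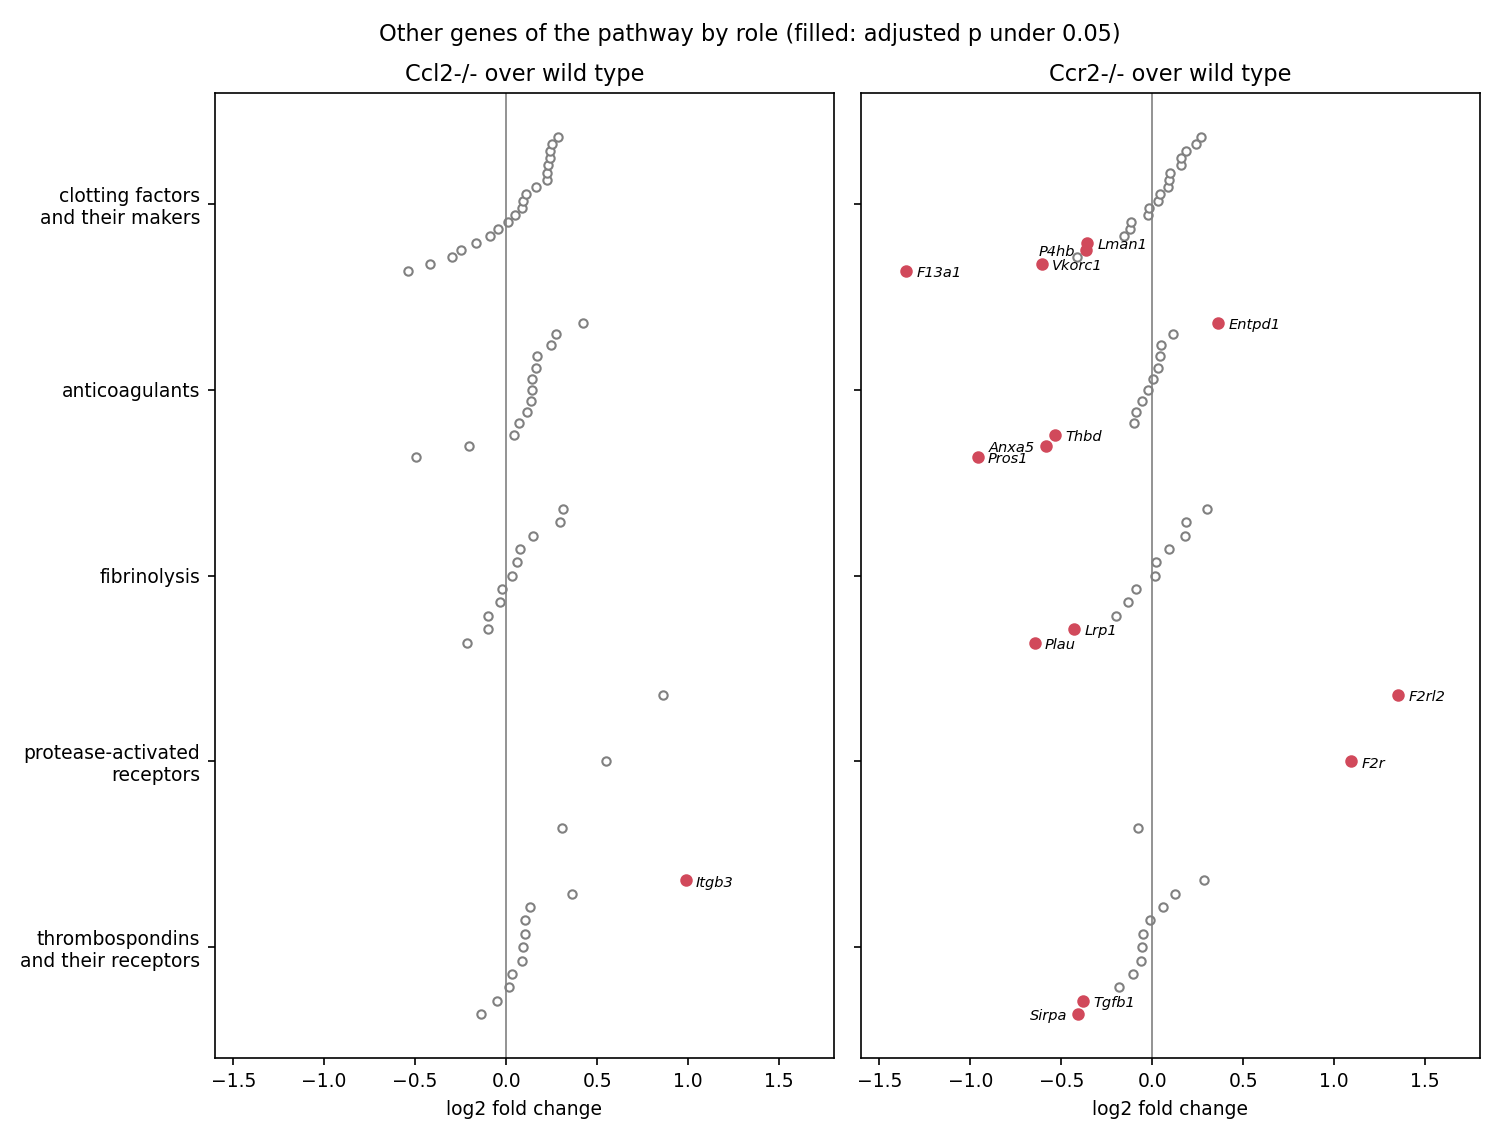
Log2 fold change (horizontal axis) of the 58 other pathway genes, 1 point per gene, stacked by role, for Ccl2-/- and Ccr2-/- against wild type. Filled, named points passed an adjusted p under 0.05, 1 in the left panel and 14 in the right, where F2r and F2rl2 lie above 1 and F13a1 below -1.

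Marker genes of several cell types also differed between the genotypes. The list of Ly-6Chi monocyte markers holds Ccr2 itself, whose fall the genotype fixes, so it is given without it. All 8 other measured markers were called lower in Ccr2-/- than in wild type, with a median of 0.383-fold, where 8.38% of all genes were called lower. Their summed intensity was 35947 to 44694 in wild type, 26206 to 30883 in Ccl2-/- and 16469 to 18218 in Ccr2-/-, without overlap, although none of the 8 was called in Ccl2-/- (median 0.658-fold). Of the 9 general monocyte and macrophage genes, 7 were lower in Ccr2-/-, with a median of 0.776-fold. The 10 NK cell genes were all called higher (median 1.71-fold), where limma called 978 of all 19938 genes higher. Their sum was 45773 to 49606 in wild type, 56466 to 68001 in Ccl2-/- and 77131 to 79493 in Ccr2-/-. Of the Ly-6Clo markers, 2 of 10 (Cd9 and Spn) were called higher, against the same 978 of all 19938 genes.

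The size of these changes can be set beside that of the 4 genes. In Ccr2-/- against wild type, the mean log2 change of the 8 Ly-6Chi markers was -1.40 and that of the 9 general genes -0.53, where F10 changed by -1.29, F5 by -1.42, Thbs1 by -1.20 and Plaur by -0.73. In Ccl2-/- against wild type the lists' means were -0.65 and -0.10, where F10 was at -0.37, F5 at -0.77, Thbs1 at -0.0031 and Plaur at -0.04, none of them called. The Ly-6Chi list holds Hp and Mgst1, which were among the nearest profiles of F10 and F5. The study also measured the monocyte subsets by flow cytometry, as percentages of blood leukocytes. It reported that either deletion reduced Ly-6Chi monocytes, with a similar effect on the subsets in both knockouts. From these same arrays it read a shift toward Ly-6Clo genes that was stronger in Ccr2-/-. All of these are values side by side, and the part of cell types in the fall of the 4 genes was not tested.

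Other cells that carry these proteins were checked in the same way. Thrombospondin-1 and factor V are also platelet proteins, and none of 8 platelet genes was called in Ccr2-/- monocytes. Their median was 1.03-fold, and their sums were 2495 to 3195 in wild type, 2543 to 3492 in Ccl2-/- and 2969.9 to 3188 in Ccr2-/-. The defining genes Pf4 and Gp9 had mean log2 intensities of 8.54 and 8.73 in Ccr2-/- and 8.08 and 8.60 in wild type. The means of Pf4 and Gp9 lie inside the range of the olfactory receptor probes, where an array can understate a change in RNA. Ppbp, another platelet gene, was brighter and above that range, at 9.38 in Ccr2-/- and 9.02 in wild type (1.28-fold, not called). Pf4 was at 1.37-fold of wild type in Ccr2-/- (limma unadjusted p = 0.0149, adjusted p = 0.0899). Its Ccr2-/- arrays were all above the wild type arrays, a separation that 15.7% of all genes also showed. Of 12 neutrophil genes only Csf3r was lower (0.520-fold), with sums of 7949.8 to 9565 in wild type, 6934 to 7837 in Ccl2-/- and 6504 to 6942 in Ccr2-/-, and Ly6g, which defines these cells, was at 7.39 and 7.23 in wild type and Ccr2-/- on the log2 scale. None of 5 hepatocyte genes, 7 genes of serous cavity macrophages, 3 erythroid, 6 T cell or 5 B cell genes was called. The erythroid sum was higher in Ccr2-/- without overlap, at 2046 to 3721 against 1185 to 1785 in wild type, led by Alas2 (3.82-fold, adjusted p = 0.0955), and the T cell sum spread from 2052 to 8515 over the Ccr2-/- arrays against 4581 to 4799 in wild type. Pecam1 was the only 1 of 7 endothelial genes to be called, upward, and 2 of 7 dendritic cell genes were lower. Over all 19938 genes, limma called 978 higher and 1670 lower in Ccr2-/- than in wild type. The part of these cells in the results was not tested.

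**Figure D4:**
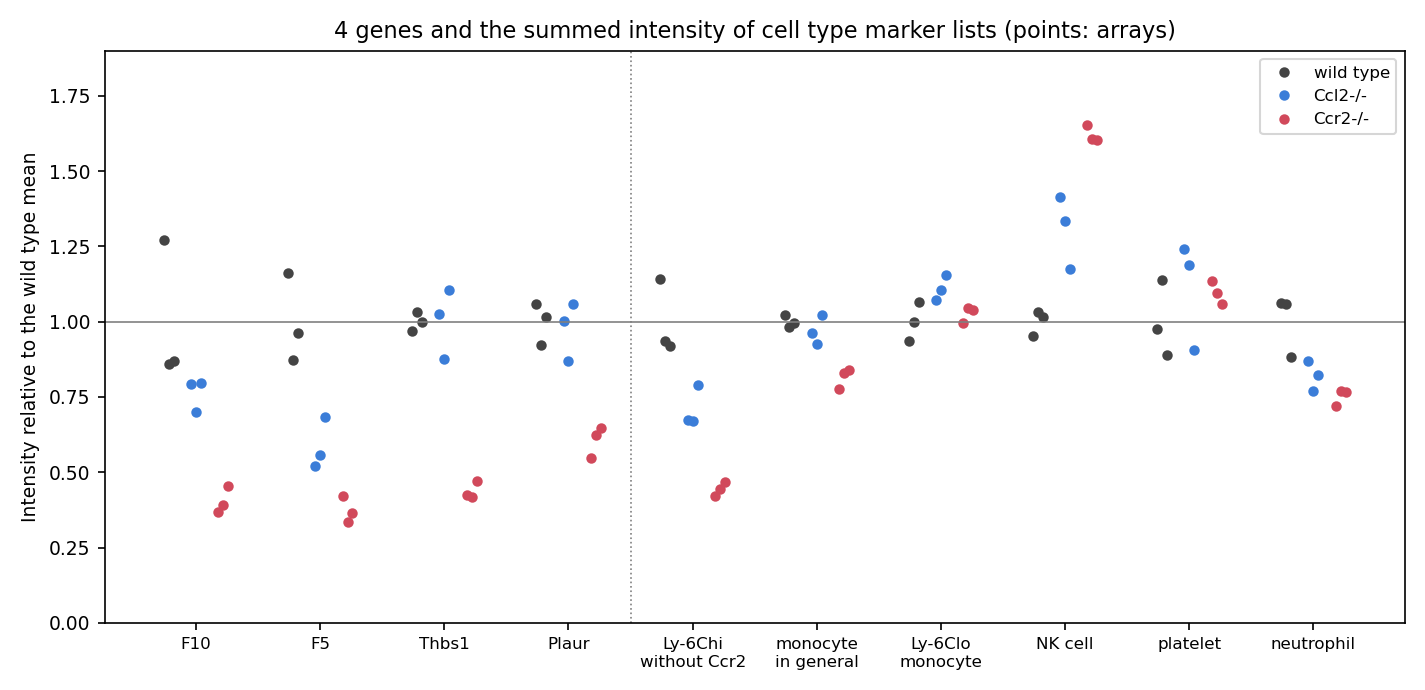
Intensity of F10, F5, Thbs1 and Plaur, and summed intensity of 6 marker lists (the Ly-6Chi list without Ccr2), in each array relative to the wild type mean (vertical axis, ratio, from 0), with genotypes side by side and 1 point per array. In Ccr2-/- the 4 genes and the Ly-6Chi list are low and the NK cell list is high, while the platelet list overlaps between genotypes, and in Ccl2-/- F10, F5 and the Ly-6Chi list are below wild type where Thbs1 and Plaur are not.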

How the data were processed

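RNA of purified blood monocytes, 3 arrays per genotype, was hybridised to Affymetrix Mouse Gene 1.0 ST arrays. The deposited values are linear intensities for 35512 transcript clusters that the authors computed with dChip. Its version, normalization and expression model are not given in the sources used here, and no step between arrays was added. Clusters were named from the platform annotation (21789 with 1 gene symbol, 1621 with several and 12102 with none), with symbols updated through RefSeq. Where a gene had more than 1 cluster (999 genes) the brightest was read, and only clusters with 1 symbol were kept. Each of the 6 genes had 1 cluster.

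Values under 1 were set to 1 before log2. All 9 arrays were fitted by genotype with limma 3.58.1 in R 4.3.3, with Benjamini-Hochberg adjustment over 19938 genes in each comparison, after the script was tested on simulated data. Arrays have no read depth, and their number limits the precision. Every p measures the spread between pooled arrays. The size limits were applied to group means of linear intensities. There were 17 alternative settings planned.

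The members and gene lists were chosen with earlier results of these data known. Named were all 6 genes, the called pathway genes (up to 4 per role with the smallest p), the 3 nearest profiles, 2 measured neighbours on each side of F7 and F10, the brightest or defining markers, and genes making up a count of 5 or fewer.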

Additional observations from a re-analysis of the deposited data

How the results depend on the processing

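In Ccr2-/- against wild type, F10, F5, Thbs1 and Plaur were called lower under each of the 17 other settings, with log2 differences of -1.39 to -1.10, -1.51 to -1.31, -1.25 to -1.16 and -0.78 to -0.65. F7 there ranged from -0.10 to 0.040 with 1 array left out. In this comparison 101 of 102 values of single genes under other settings kept direction and call, against 95 of 102 in Ccl2-/- over wild type and 76 of 102 in Ccr2-/- over Ccl2-/-. In Ccl2-/- over wild type, leaving out 1 array gave log2 differences of -0.0012 to 0.26 for F7, -0.88 to -0.65 for F5, -0.077 to 0.090 for Thbs1 and -0.10 to 0.044 for Plaur, and F5 was called with an intensity trend in the variances (-0.77, adjusted p = 0.0274). Of the 6 genes, 0 to 1 were called there with 1 array left out and 1 with the trend, and 1 to 2 passed the size limits with 1 array left out and 1 with group medians. In Ccr2-/- over Ccl2-/-, F3 was at 0.017 after quantile normalization, at 0.043 after centring each array on its median and at -0.10 to 0.031 with 1 array left out. F10 was not called after centring (-0.85, adjusted p = 0.0505), in a fit of the 6 arrays (-0.92, 0.0651) or with the replicate number as a block (-0.92, 0.0574), and ranged from -1.01 to -0.85 with 1 array left out. F5 was not called after quantile normalization (-0.60, 0.118), centring (-0.58, 0.194), in the fit of 6 arrays (-0.65, 0.126) or with the block (-0.65, 0.0819), and ranged from -0.74 to -0.54. Plaur was not called after centring (-0.62, 0.0710) or in the fit of 6 arrays (-0.69, 0.0879), and ranged from -0.77 to -0.62. Thbs1 was called under all 17 settings there (highest adjusted p = 0.0443). Of the 6 genes, 1 was called after centring, 1 in the fit of 6 arrays, 2 with the block and 1 to 4 with 1 array left out. The cause of these changes was not tested, beyond the smaller number of arrays in the fits that used fewer.

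Genes called between Ccl2-/- and wild type numbered 366 with the trend, 105 with an offset of 50 before log2, 2 in the fit of 6 arrays, 7 with the block and 6 to 476 with 1 array left out. Between Ccr2-/- and wild type they numbered 1690 after centring and 1663 to 3479 with 1 array left out. Between the knockouts they numbered 468 after quantile normalization, 131 after centring, 1344 with the trend, 17 in the fit of 6 arrays, 167 with the block and 22 to 1189 with 1 array left out. Pathway genes called numbered 5 with the trend, 4 with the offset, 0 in the fit of 6 arrays, 0 with the block and 0 to 4 with 1 array left out in Ccl2-/- over wild type. They numbered 8 after centring and 9 to 15 with 1 array left out in Ccr2-/- over wild type, and 3 after centring, 1 in the fit of 6 arrays, 2 with the block and 1 to 9 with 1 array left out between the knockouts. Of 9 same-numbered pairs of arrays, 4 had deviations that correlated above 0.1 (range -0.18 to 0.56). Pairs with different numbers ranged from -0.69 to 0.56. Deviations of 3 arrays from their own group mean cancel out, so these correlations cannot decide whether the replicate numbers pair the arrays.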
